A study of Mus musculus with 6 samples.

Results

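The genes described here are 10 p53 target and cell cycle inhibitor genes of the mouse: Cdkn1a, Cdkn1b, Cdkn2a, Cdkn2b, Mdm2, Ccng1, Bax, Trp53inp1, Phlda3 and Eda2r. They were chosen by name for their place in the p53 response and in the block of the cell cycle, with earlier results of these data known. The table holds 34866 genes, and all 10 were found by their Ensembl identifiers. The RNA was taken from mucosa of the antrum, the outlet end of the stomach, in 3 samples with intact Muc6 (Muc6 +/+, wild type 1 to 3) and 3 without it (Muc6 -/-, knockout 1 to 3). Muc6 is a gel-forming mucin made by gland cells of the antrum, and per the design text the Muc6 -/- mice were made for this study to ask how Muc6 relates to gastric carcinogenesis. The labels give no treatment, and the sources used here do not state the age, sex or strain of the mice, how the allele was made, the number of founder lines or whether replicates are separate animals.

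The transcription factor p53 is held low by the ubiquitin ligase Mdm2 and accumulates after DNA damage, ribosomal stress or oncogene signals. It binds a DNA element made of paired half-sites and switches on genes that stop the cell cycle, start cell death or feed back on p53 itself. Inhibitors of cyclin-dependent kinases (CDKs) form a pair of families. The CIP/KIP proteins (Cdkn1a, or p21, and Cdkn1b, or p27) bind cyclin-CDK complexes, and the INK4 proteins (p16 from Cdkn2a and p15 from Cdkn2b) bind CDK4 and CDK6. Cdkn1a is a direct p53 target, whereas Cdkn1b and the INK4 genes are mainly set by other inputs. In the gut lining these genes are low in dividing gland cells and are drawn on during damage and repair.

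The promoter windows of these genes show which of them carry the p53 element at an annotated start. The RefSeq windows (build GRCm38.p6, 250 bases before to 50 after a start, written along the gene) numbered 11 and covered 9 of the 10 genes, matched by symbol, since Cdkn1a and Cdkn2a each have a pair of annotated starts and Trp53inp1 has no entry. The p53 element was searched by its consensus name as abutting half-sites with at most 1 mismatch, on both strands, and was present in 22 of 32851 mouse windows (0.067%). It was found at Cdkn1a and at Ccng1, whose windows are shown with the element and any perfect half-site in capitals.
Cdkn1a, upstream start, chr17:29090729-29091028, plus strand: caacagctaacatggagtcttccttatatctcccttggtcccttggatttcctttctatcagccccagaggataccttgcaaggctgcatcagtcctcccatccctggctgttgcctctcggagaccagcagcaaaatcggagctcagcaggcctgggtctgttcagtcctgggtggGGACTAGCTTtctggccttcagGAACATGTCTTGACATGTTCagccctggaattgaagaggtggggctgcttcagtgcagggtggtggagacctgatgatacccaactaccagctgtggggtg
Ccng1, chr11:40755237-40755536, minus strand: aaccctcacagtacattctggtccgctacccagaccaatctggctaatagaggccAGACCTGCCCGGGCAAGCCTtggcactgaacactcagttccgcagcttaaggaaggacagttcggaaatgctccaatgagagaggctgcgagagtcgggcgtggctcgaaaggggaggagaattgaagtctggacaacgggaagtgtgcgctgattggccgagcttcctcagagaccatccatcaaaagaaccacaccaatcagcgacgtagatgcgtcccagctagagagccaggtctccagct
The Cdkn1a element, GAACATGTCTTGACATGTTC, lay at chr17:29090928-29090947 and began 51 bases before the start. The Ccng1 element, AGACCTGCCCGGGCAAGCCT, lay at chr11:40755462-40755481 and began 195 bases before the start. The windows of Mdm2 and Bax held a perfect half-site alone, GAACTTGCCT (chr10:117710935-117710944) and AGGCAAGCTT (chr7:45467090-45467099), which 8.36% of all windows also held. No match was found in the windows of Phlda3 and Eda2r, the genes with the largest changes below, which are shown for comparison and hold no capitals. The Phlda3 window ends in gaacatgt, which fits the beginning of a half-site but is cut off by the window edge, so it could not be scored.
Phlda3, chr1:135765835-135766134, plus strand: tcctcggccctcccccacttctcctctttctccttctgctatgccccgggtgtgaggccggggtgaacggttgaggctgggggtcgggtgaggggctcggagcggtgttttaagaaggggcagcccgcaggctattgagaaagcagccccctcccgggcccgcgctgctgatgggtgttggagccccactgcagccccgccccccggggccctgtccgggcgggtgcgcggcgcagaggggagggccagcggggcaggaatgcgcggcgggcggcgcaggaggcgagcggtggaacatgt
Eda2r, chrX:97377160-97377459, minus strand: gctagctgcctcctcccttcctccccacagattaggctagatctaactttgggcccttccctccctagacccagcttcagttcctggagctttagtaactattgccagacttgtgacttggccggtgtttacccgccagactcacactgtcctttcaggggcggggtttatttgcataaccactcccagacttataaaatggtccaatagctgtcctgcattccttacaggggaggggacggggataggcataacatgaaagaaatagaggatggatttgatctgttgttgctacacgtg
The second Cdkn1a window and those of Cdkn1b, Cdkn2a and Cdkn2b also held neither form. The search covers these windows alone, so elements in introns or elsewhere outside them were not looked at for any gene.

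Levels are given as CPM, counts per 1000000 of the composition-scaled library, and changes as the log2 fold change, knockout over wild type, with a standard error (SE) and an adjusted p from edgeR's quasi-likelihood test (Benjamini-Hochberg over all 14017 genes tested, threshold 0.05). Libraries held 19839799 to 21354029 estimated counts. Muc6 was at 396, 403 and 510 CPM in the wild types and at 0.0425, 0 and 0 CPM in the knockouts, 23248 counts against 1. The Y-linked genes Ddx3y, Eif2s3y, Kdm5d and Uty summed to 5.85 to 6.73 CPM in the wild types but 132 to 139 CPM in the knockouts, so sex and genotype cannot be told apart in any difference below. Antral markers fitted the labelled tissue in the wild types (Gast, the gastrin gene, 762 to 1196 CPM), while the knockouts held 9.52 to 24.8 CPM of Gast. Of all genes tested, 38.4% were called (19.3% higher and 19.2% lower in the knockout), and for 54.8% the wild types were all on one side of the knockouts. When libraries were scaled to total counts, the median over all genes went from 0.02 to 0.43 and 84.0% of calls were higher against 50.1%, and removing each library's trend over transcript GC content made 39.0% of calls higher, so directions are relative to the composition-scaled median. In bulk tissue, fewer cells of a type and less RNA per cell cannot be told apart.

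Of the 10 genes, 9 passed the filter on low counts, Eda2r only through its knockout counts. Of these, 6 were called (66.7%), where 38.4% of all tested genes were called. Phlda3, Eda2r, Bax, Cdkn2b and Mdm2 rose and Cdkn1b fell, while Cdkn1a, Ccng1 and Trp53inp1 did not pass. The groups did not overlap for any of the 9, with 6 higher and 3 lower in the knockout, where 54.8% of all tested genes were separated in either direction. The median change was 0.75 over the 9, against 0.02 over all tested genes. The list was chosen with earlier results of these data known, so these shares and medians describe it and are not a test of it.

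Among the genes that feed back on p53, Mdm2 (chr10:117688875-117710758, minus strand, mm10 as for all gene positions below) rose. It encodes the ligase that marks p53 for degradation, and had levels of 29.7, 28.7 and 22.9 CPM in wild types 1, 2 and 3, against 41.8, 38.1 and 40.7 CPM for knockouts 1, 2 and 3. Every knockout was above every wild type, and the knockouts lay close together (wild-type mean 27.1 ± 3.65 and knockout mean 40.2 ± 1.88 CPM, SD, n = 3 each, as for all means with ±). The change was 0.57 (SE 0.13, 95% interval 0.27 to 0.87, edgeR adjusted p = 0.0121), and it stayed past the threshold in all 17 other fits, at adjusted p of 0.00102 to 0.0483. Ccng1 (chr11:40748552-40755311, minus strand) encodes cyclin G1, which brings a phosphatase to Mdm2. It was at 137, 199 and 197 CPM in the wild types and at 432, 237 and 225 CPM in the knockouts. The groups were apart, but knockout 1 stood well above the other knockouts, and the change of 0.75 (SE 0.29, interval 0.06 to 1.43) did not pass at edgeR adjusted p = 0.0807. Without knockout 1 the change of Ccng1 was 0.38 and without both libraries numbered 1 it was 0.20. It was called when scaled to total counts (1.16, edgeR adjusted p = 0.0149), with the GC trend removed (1.07, 0.0211) and by DESeq2 (0.74, 0.016). The call was also made with the GC trend removed and the replicate number as a block (0.99, 0.037), out of a range over all fits of 0.0149 to 0.201.

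The genes of cell death and survival held the largest changes. Bax (chr7:45461697-45466898, minus strand) encodes a protein that opens the outer mitochondrial membrane in apoptosis. It was at 27.8, 19.7 and 17.7 CPM in the wild types and at 58.6, 38.3 and 40.4 CPM in the knockouts. The lowest knockout was above the highest wild type, and the means were 21.7 ± 5.32 and 45.8 ± 11.2 CPM. The rise was 1.07 (SE 0.23, edgeR adjusted p = 0.00973), and it was not called with the GC trend removed (0.67, adjusted p = 0.115, the highest of a range from 0.000138). The longest Bax transcript has a GC content of 63.5%, the highest of the 10 genes.

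Phlda3 (chr1:135766119-135769136, plus strand) encodes a pleckstrin homology protein that keeps the kinase AKT from the membrane. It was at 2.44, 4.56 and 6.09 CPM in the wild types and at 45.5, 24.2 and 21.2 CPM in the knockouts. All knockouts were more than 3 times the highest wild type, and knockout 1 was the highest. The rise was 2.80 (SE 0.43, interval 1.76 to 3.83, edgeR adjusted p = 0.00404), a fold of 6.94. Without both libraries numbered 1 it was 2.07 (adjusted p = 0.000142) and it was called in 16 of 17 other fits.

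Eda2r encodes a receptor of the TNF receptor superfamily for the EDA-A2 form of ectodysplasin. It was at 0.38, 1.63 and 0.928 CPM in the wild types, from 7, 29 and 16 counts, and at 26.04, 12.1 and 9.46 CPM in the knockouts, from 613, 291 and 217 counts. The groups were far apart, again with knockout 1 the highest. The rise was 4.01 (SE 0.62, interval 2.54 to 5.48, edgeR adjusted p = 0.00371), larger in size than the change of 98.0% of tested genes. It was 3.46 without knockout 1, 4.6 without wild type 2 and 3.04 without both libraries numbered 1, and was called in all 17 other fits. It passed the low-count filter only through its knockout counts. Eda2r lies on the X chromosome (chrX:97333840-97377216, minus strand). Of 454 X-linked genes tested, 41 rose and 131 fell (37.9% called, 9.03% higher), with a median of -0.36. Over all 14017 tested genes 38.4% were called and 19.3% were higher, with a median of 0.02. A change upward at least as large as that of Eda2r was seen in 9 X-linked genes, Eda2r included, and in 250 of all tested genes. The part of sex in the change of Eda2r was not tested.

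Trp53inp1 (chr4:11156431-11174379, plus strand), a stress-induced partner of p53 that also acts in autophagy, was at 21.9, 20.1 and 31.4 CPM in the wild types and at 18.9, 16.9 and 17.2 CPM in the knockouts. The knockouts were just below the lowest wild type, and wild type 3 stood apart above the rest. The difference of -0.47 (SE 0.18) did not pass at edgeR adjusted p = 0.0781, and over the other fits this p was 0.042 to 0.83, with the one call made without both libraries numbered 1 (-0.61).

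**Figure D1:**
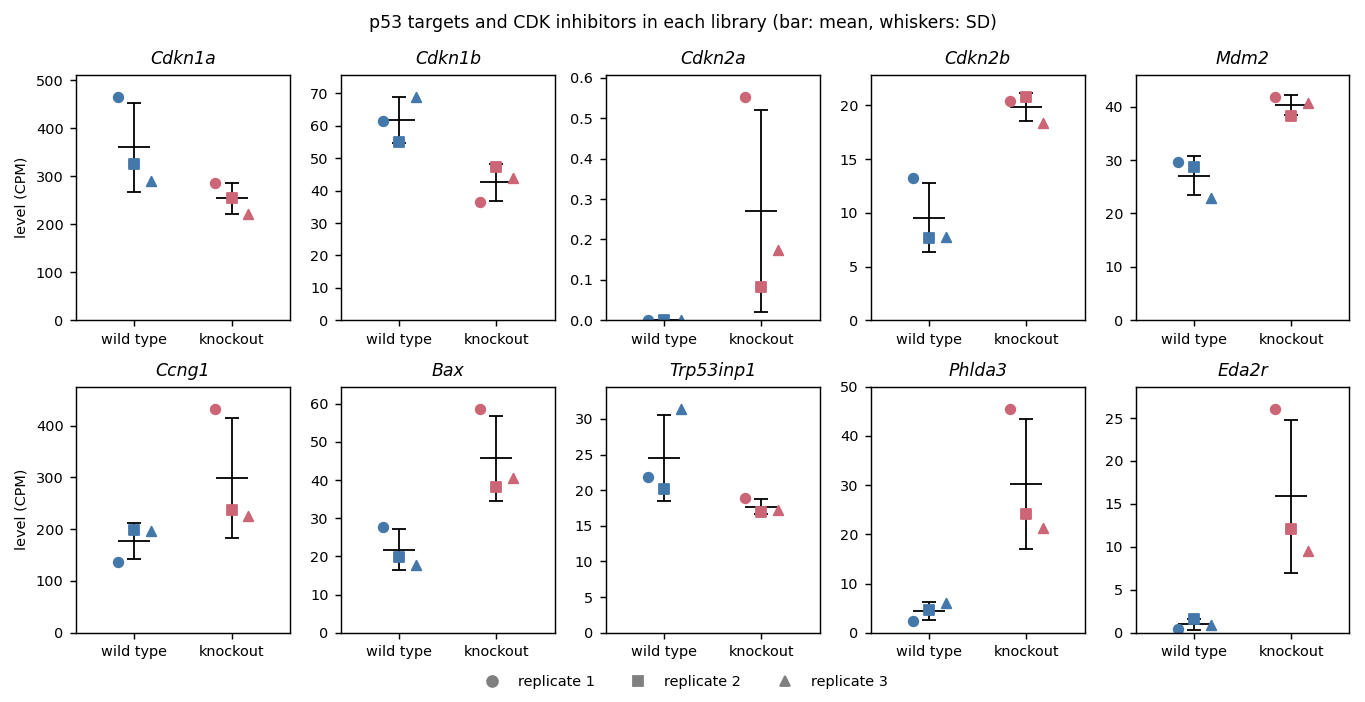
Level of each of the 10 genes in CPM (vertical axes, each from 0) in the 3 wild-type (blue) and 3 knockout (red) libraries, with the marker shape giving the replicate, the horizontal bar the mean and the whiskers the SD. The groups are apart in each panel, and knockout 1 (red circle) is the highest knockout in 8 of the 10 panels, all but Cdkn1b and Cdkn2b.

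Of the CDK inhibitors, Cdkn1a (chr17:29090976-29100727, plus strand), the best known p53 target, was the most abundant and did not rise. It was at 465, 326 and 289 CPM in the wild types and at 286, 255 and 221 CPM in the knockouts. The knockouts lay just below the lowest wild type, and wild type 1 stood above the others. The difference of -0.50 (SE 0.19, interval -0.95 to -0.05) did not pass at edgeR adjusted p = 0.0743. It was called as lower in 6 of the 17 other fits. These were DESeq2 (-0.51, 0.0281), the GC trend removed (-0.82, 0.0239), and the fits without wild type 3 (-0.65, 0.0449) and without both libraries numbered 1 (-0.39, 0.0277). The rest took the replicate number as a block (-0.48, 0.0323), also with the GC trend removed (-0.80, 0.00736). Scaling to total counts gave -0.09 at 0.732, and over all fits the p ran from 0.00736 to 0.732. No fit gave a value above 0.

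Cdkn1b (chr6:134920401-134925513, plus strand), the inhibitor of CDK2 complexes in resting cells, fell. It was at 61.5, 54.8 and 68.8 CPM in the wild types and at 36.3, 47.2 and 44.0 CPM in the knockouts. All knockouts were below all wild types, at means of 42.5 ± 5.58 and 61.7 ± 7.01 CPM. The log2 fold change was -0.54 (SE 0.14, edgeR adjusted p = 0.0191). The call was not made with total counts (-0.12, 0.506), with the GC trend removed (-0.39, 0.119) or without wild type 3 (-0.47, 0.0595). Nor was it made with the GC trend removed and the replicate number as a block (-0.38, 0.15), in a range from 0.00229 to 0.506.

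Cdkn2b (chr4:89306299-89311039, minus strand), the p15 inhibitor of CDK4 and CDK6, rose. It was at 13.3, 7.65 and 7.77 CPM in the wild types and at 20.4, 20.8 and 18.3 CPM in the knockouts. The knockouts were close to each other and all above the wild types, of which wild type 1 was the highest. The rise was 1.05 (SE 0.23, edgeR adjusted p = 0.0108), and it was not called with the GC trend removed (0.68, 0.0578, the highest of a range from 0.000496). The neighbouring Cdkn2a gene (chr4:89274471-89294653, minus strand) makes p16 and, from another first exon, ARF, which binds Mdm2, and a gene count cannot tell these apart. Cdkn2a had 0 counts in each wild type and 13, 2 and 4 counts in knockout 1, 2 and 3, or 0.552, 0.0831 and 0.175 CPM. It failed the low-count filter and was not tested. Against a floor of 3 counts over the wild-type group, 0.0562 CPM, the pooled knockout level of 0.269 CPM was 4.80-fold higher. That fold allows for counting error in the wild types alone and takes the 19 knockout counts as exact. Knockout 1 held 13 of these 19 counts.

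**Figure D2:**
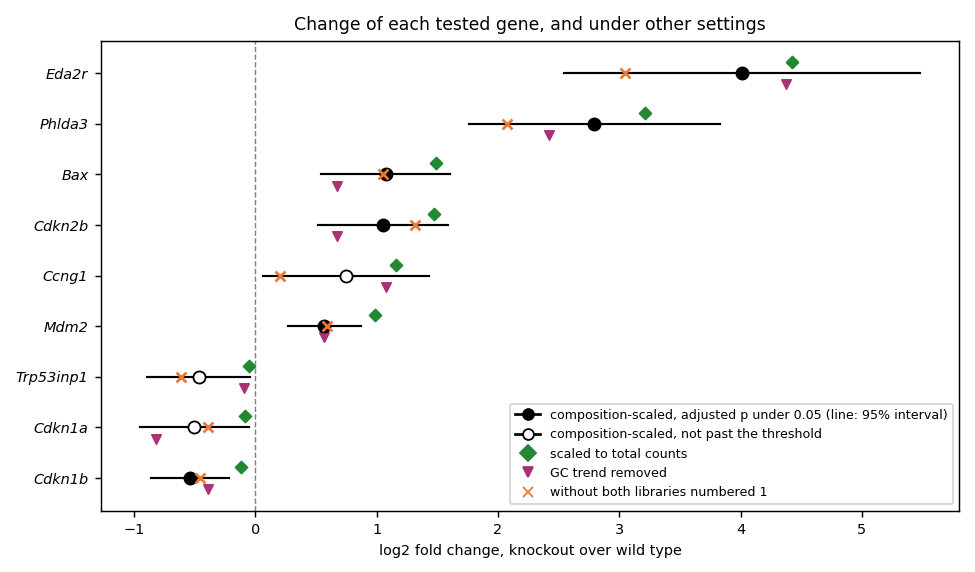
Log2 fold change of knockout over wild type (horizontal axis) for the 9 tested genes, with 95% intervals for the composition-scaled fit (circles, filled where the adjusted p is under 0.05) and values from 3 other settings. No point of any gene crosses 0 to the other side, while scaling to total counts brings Cdkn1b to -0.12 and removing the GC trend brings Bax to 0.67 and Cdkn2b to 0.68.

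Relative to Cdkn1a in the same library, a measure that does not depend on scaling, 5 of the 6 other p53 targets stood higher in every knockout than in any wild type, and Trp53inp1 did not. These ratios were chosen after the values were seen. Mdm2 had 6.38, 8.80 and 7.92 counts per 100 counts of Cdkn1a in the wild types and 14.6, 14.9 and 18.4 in the knockouts. Bax had 5.97, 6.06 and 6.11 in the wild types, nearly the same in each, and 20.5, 15.0 and 18.3 in the knockouts. Phlda3 had 0.526, 1.40 and 2.11 against 15.9, 9.47 and 9.59, and Eda2r had 0.0818, 0.5 and 0.321 against 9.10, 4.73 and 4.28. Ccng1 had 29.4, 61.1 and 68.0 against 151, 92.8 and 102. The groups were apart for these 5 ratios. Trp53inp1 had 4.71, 6.18 and 10.8 against 6.59, 6.64 and 7.79, so its groups overlapped, with wild type 3 above every knockout. Ratios between other pairs also separated the groups. Mdm2 per 100 counts of Trp53 went the other way, with 190, 212 and 170 in the wild types and 113, 141 and 136 in the knockouts. Mdm2 per 100 counts of Mdm4, a relative that also restrains p53, was at 89.1, 93.4 and 75.1 against 110, 120 and 143. Bax per 100 counts of Bcl2l1, its opponent, was at 57.7, 49.7 and 48.0 against 101, 61.8 and 80.4, and Cdkn2b per 100 counts of Cdkn1b was at 21.6, 13.9 and 11.3 against 56.1, 44.1 and 41.6. Of the 10 ratios, 9 gave p = 0.1 by a two-sided exact permutation test over libraries, the smallest that 3 against 3 allows, and Trp53inp1 over Cdkn1a gave p = 1.0 (0.111 and 1.0 after Benjamini-Hochberg adjustment over the 10). Such a ratio shows that the genes of a pair changed unequally and not which of them changed.

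**Figure D3:**
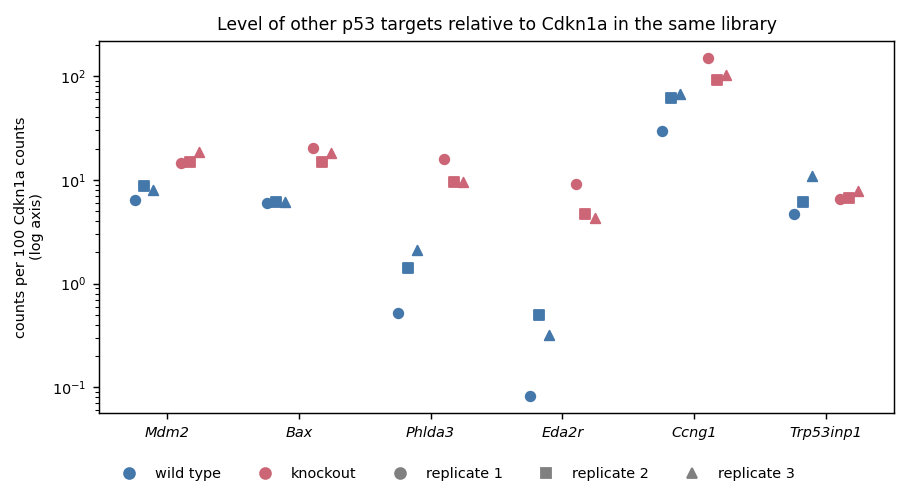
Counts of Mdm2, Bax, Phlda3, Eda2r, Ccng1 and Trp53inp1 per 100 counts of Cdkn1a in the same library (vertical log axis) for the 3 wild-type (blue) and 3 knockout (red) libraries, with the marker shape giving the replicate. The knockout libraries lie above the wild types for each gene but Trp53inp1, whose groups overlap, and the gap for Eda2r is 0.0818 to 0.5 against 4.28 to 9.10.

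Levels of different genes were compared per kilobase of the longest annotated transcript. In wild type the order was Cdkn1a at 173 ± 44.6 CPM per kb, Ccng1 at 50.6 ± 10.1 CPM per kb, Bax at 19.8 ± 4.84 CPM per kb and Cdkn1b at 13.6 ± 1.54 CPM per kb, followed by Mdm2 at 8.61 ± 1.16 CPM per kb, Cdkn2b at 6.88 ± 2.30 CPM per kb, Trp53inp1 at 4.51 ± 1.11 CPM per kb and Phlda3 at 3.04 ± 1.28 CPM per kb. Eda2r was far lower at 0.206 ± 0.132 CPM per kb. The values of the 3 libraries overlapped between neighbours from Mdm2 to Phlda3 (Mdm2 and Cdkn2b, Cdkn2b and Trp53inp1, Trp53inp1 and Phlda3), so the order of these neighbours was not resolved. In the knockout Cdkn1a (122 ± 15.6 CPM per kb), Ccng1 (84.9 ± 33.0 CPM per kb) and Bax (41.6 ± 10.1 CPM per kb) again led. By mean, Phlda3 at 21.1 ± 9.22 CPM per kb was followed by Cdkn2b at 14.3 ± 0.952, Mdm2 at 12.8 ± 0.596 and Cdkn1b at 9.34 ± 1.23 CPM per kb. Eda2r and Trp53inp1 were at 3.34 ± 1.88 and 3.26 ± 0.190 CPM per kb, and Cdkn2a was the lowest at 0.302 ± 0.278 CPM per kb. Here the libraries overlapped between Cdkn1a and Ccng1, Phlda3 and Cdkn2b, Cdkn2b and Mdm2, and Eda2r and Trp53inp1, so the order within these pairs was not resolved.

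Knockout 1 was the highest knockout for 8 of the 10 genes, with Eda2r at 2.42, Phlda3 at 2.0, Ccng1 at 1.87 and Bax at 1.49 times the mean of knockout 2 and 3. It was the lowest knockout for Cdkn1b, at 0.797 times. Other cell types also set this library apart. The 8 myeloid markers summed to 254 CPM in knockout 1 against 67.8 and 66.3 CPM in knockout 2 and 3, with the neutrophil genes S100a8 and S100a9 at 60.0 and 89.6 CPM against at most 0.706 and 1.96 CPM, and to 9.02 to 68.5 CPM in wild type. The 6 smooth muscle markers summed to 73.1 CPM in knockout 1 and 210 CPM in wild type 1, against 696 to 3233 CPM in the other 4 libraries. Markers of plasma and B cells summed to 236 to 734 CPM in the knockouts and 0.812 to 1.47 CPM in the wild types, and those of T and NK cells to at most 2.40 CPM in any library. Surface mucous cell markers summed to 159200 to 183600 CPM in the wild types and 38480 to 50550 CPM in the knockouts, parietal and chief cell markers to 4315 to 5835 and 144 to 1181 CPM, and hormone cell markers to 1455 to 2014 and 60.7 to 423 CPM. Of the 5 surface mucous cell markers 4 fell, and Gkn3 overlapped between the groups (1975 to 2119 against 1276 to 4199 CPM). Pgc made up most of the parietal and chief cell sum, at 3917 to 5348 against 132 to 1103 CPM. In that list 4 of 6 genes fell, and Pga5 overlapped (3.10 to 15.8 against 3.31 to 13.3 CPM). The wild types differed in the parietal genes, with Atp4a at 7.28, 84.8 and 123 CPM and Atp4b at 6.41, 143 and 140 CPM. Gland mucous cell markers summed to 5258 to 7326 CPM in the wild types against 12880 to 17840 CPM in the knockouts. Tff2 made up most of that sum, at 4701 to 6875 against 12820 to 17620 CPM. Of the 3 gland mucous genes 2 rose, while Muc6, the knocked-out gene, fell. Squamous markers summed to 4.35 to 8.96 and 16.5 to 86.0 CPM. Intestinal markers summed to 919 to 986 CPM in the wild types against 689 to 2111 CPM in the knockouts, a sum that mixes directions: 4 of 6 tested genes rose and 1 fell, with Alpi at 19.2 to 29.6 against 308 to 1309 CPM, Cdh17 at 0.116 to 0.598 against 5.01 to 199 CPM and Fabp2 at 677 to 754 against 19.4 to 201 CPM. Fibroblast markers summed to 44.5 to 717 and 389 to 511 CPM, and endothelial markers to 14.6 to 28.2 and 43.6 to 61.8 CPM. Of the 5 endothelial markers, 2 rose and 1 fell. Mitochondrially encoded messages summed to 90550 to 139200 CPM in the wild types against 57670 to 68340 CPM in the knockouts. Ly6g, which defines neutrophils, was at 0 in every library but knockout 1. The rises of Phlda3, Eda2r, Bax, Cdkn2b and Mdm2 were called without knockout 1 and without both libraries numbered 1. Leaving these libraries out does not remove the differences in marker sums that all knockouts share. The part of these cells and of RNA quality in the changes was not tested.

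Other p53 targets were called about as often as genes in general, in both directions. In a list of 44 further targets, 43 were tested, of which 9 rose, 7 fell and 27 did not pass. This is 37.2% called, near the 38.4% of all tested genes, with a median of 0.35 against 0.02 over all tested genes. Tnfrsf10b, a death receptor for the ligand TRAIL, rose by 2.17 (SE 0.20, edgeR adjusted p = 0.000548), from 4.58 ± 0.463 to 20.6 ± 4.45 CPM. Aen, an apoptosis-enhancing nuclease, rose by 1.39 (SE 0.15), from 12.5 ± 1.35 to 32.8 ± 4.41 CPM, and Susd6, a p53-induced membrane protein, rose by 0.71 (SE 0.10), from 43.0 ± 1.997 to 70.2 ± 3.97 CPM. Perp, a p53 target that is also part of epithelial junctions, went from 535 ± 20.8 down to 278 ± 19.9 CPM, a log2 fold change of -0.95 (SE 0.10). These 4 were called in all 17 other fits. With total counts 20 of the list were higher and 2 lower. The number lower was 4 without knockout 1 or wild type 2 and 3 without knockout 2.

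Of p53 itself and its regulators, 2 of 16 rose, 7 fell and 7 did not pass (56.2% called), with a median of -0.32. The p53 gene Trp53 was at 15.6, 13.5 and 13.5 CPM in the wild types and at 37.1, 27.0 and 30.01 CPM in the knockouts. The groups were well apart, with knockout 1 the highest, and the rise was 1.15 (SE 0.15, edgeR adjusted p = 0.00162), called in all 17 other fits. Rpl11 and Rpl5, ribosomal proteins that bind Mdm2 when ribosome assembly fails, fell, with log2 fold changes of -0.70 (SE 0.12) and -0.93 (SE 0.16), as did Cop1, another ligase for p53 (-0.50, SE 0.12). Ribosomal protein genes have many near-identical copies, so their counts are uncertain. The call of Rpl11 was not made with total counts (edgeR adjusted p = 0.0822), nor that of Cop1 with total counts (0.581) or the GC trend removed (0.851). With total counts 5 of the 16 were higher and 1 lower, and leaving out 1 library gave 1 to 2 higher and 2 to 9 lower, with 2 lower without wild type 2, 3 when wild type 3 or knockout 3 was left out, 4 without knockout 2, and 1 higher when any of wild types 1 and 3 or knockouts 1 and 2 was left out. The call of Cop1 was also not made on leaving out wild type 2 (0.0621), wild type 3 (0.056), knockout 2 (0.0597) or knockout 3 (0.0543).

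The other 3 CDK inhibitors did not pass. Cdkn1c, or p57, was at 7.49 ± 1.75 CPM in the wild types against 3.32 ± 1.96 CPM in the knockouts, apart but variable (-1.17, SE 0.49, edgeR adjusted p = 0.0972, and 0.0139 to 0.243 over the other fits, 5 of which called it). Cdkn2c, or p18, was at 19.1 ± 1.67 and 22.8 ± 3.66 CPM (adjusted p = 0.217), and Cdkn2d, or p19, at 4.95 ± 1.14 and 4.22 ± 1.38 CPM (0.608). Among 22 cyclins, CDKs and genes of the RB family, which act below these inhibitors, 6 rose and 6 fell (54.5% called). The D-type cyclin genes Ccnd2 and Ccnd1, partners of CDK4 and CDK6, rose by 1.65 (SE 0.12, edgeR adjusted p = 0.000252) and 1.26 (SE 0.21, 0.00423), Ccnd2 from 115 ± 10.53 to 361 ± 28.6 CPM. Rb1, which encodes the retinoblastoma protein, fell from 48.5 ± 3.92 to 23.0 ± 1.01 CPM (-1.08, SE 0.11), and Ccnb2, a mitotic cyclin gene, also fell (-0.69, SE 0.12), a call not made with total counts (-0.28, adjusted p = 0.0981). With total counts the list had 12 higher and 1 lower, and without wild type 2 it had 3 lower. Of 20 proliferation genes, 0 rose and 2 fell, Mki67 (-0.99, SE 0.16) and Bub1, a spindle checkpoint gene (-0.65, SE 0.19). The list median was 0.00. With total counts 7 were higher and 1 lower, without both libraries numbered 1 there were 3 higher, and without wild type 1 there were 2 higher. Of the 6 fits that each leave out 1 library, 4 had 1 lower, those leaving out wild type 1, wild type 2, knockout 1 and knockout 3. The call of Bub1 was not made with total counts (0.353), with the GC trend removed (0.193), nor in any of those 4 fits (0.0525 to 0.116).

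Genes related to Bax, Cdkn2a and Eda2r were looked at in the same way. In the BCL2 family, 3 of 11 tested genes rose and 0 fell (27.3% called), against 8 and 0 when scaled to total counts, 1 and 1 after removal of the GC trend, and 1 and 0 without wild type 2, knockout 1 or knockout 2. Bok, a relative of Bax, rose by 1.15 (SE 0.12), from 33.8 ± 0.212 to 75.0 ± 9.92 CPM, and was called in all 17 other fits. Bcl2l1, which opposes Bax, and Bmf, which promotes death, rose by 0.45 (SE 0.14, edgeR adjusted p = 0.0362) and 0.90 (SE 0.29, 0.0454), and these were called in 11 and 7 of the 17 other fits. Their calls were not made with the GC trend removed (0.787 and 0.157), or on leaving out wild type 2 (0.116 and 0.137), wild type 3 (0.119 and 0.0503), knockout 1 (0.0828 and 0.106) or knockout 2 (0.122 and 0.161), nor was that of Bmf without wild type 1 (0.0768). Among 10 regulators of the Cdkn2a locus, 2 rose and 4 fell (60.0% called). Suz12, a subunit of the Polycomb complex that silences it, and Id1, a repressor of its transcription, fell, by log2 fold changes of -0.60 (SE 0.11) and -1.1 (SE 0.23), while the activator Ets1 rose by 2.02 (SE 0.44) and the Polycomb gene Cbx7 by 0.55 (SE 0.14). The call of Suz12 was not made with total counts (0.226) or the GC trend removed (0.0714), that of Cbx7 with the GC trend removed (0.522) or on leaving out wild type 2 (0.0704), wild type 3 (0.0673), knockout 1 (0.0508) or knockout 2 (0.0689), and that of Ets1 without wild type 2 (0.0546). Leaving out 1 library gave 0 to 3 higher and 2 to 5 lower in this list (0 higher without wild type 2, 1 without wild type 3, knockout 1 or knockout 2, and 2 lower without any of these 4), and it had 3 higher and 1 lower with total counts, and 1 of each after the GC trend was removed. Of 5 genes of the ectodysplasin pathway, 3 were tested (33.3% called). Traf3, a signalling adaptor, rose by 1.23 (SE 0.13), from 11.4 ± 0.792 to 26.9 ± 2.37 CPM. The ligand gene Eda, X-linked like Eda2r, was at 0.272, 1.12 and 2.55 CPM in the wild types and at 0.722, 0.956 and 1.05 CPM in the knockouts. Its groups overlapped (edgeR adjusted p = 0.589).

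**Figure D4:**
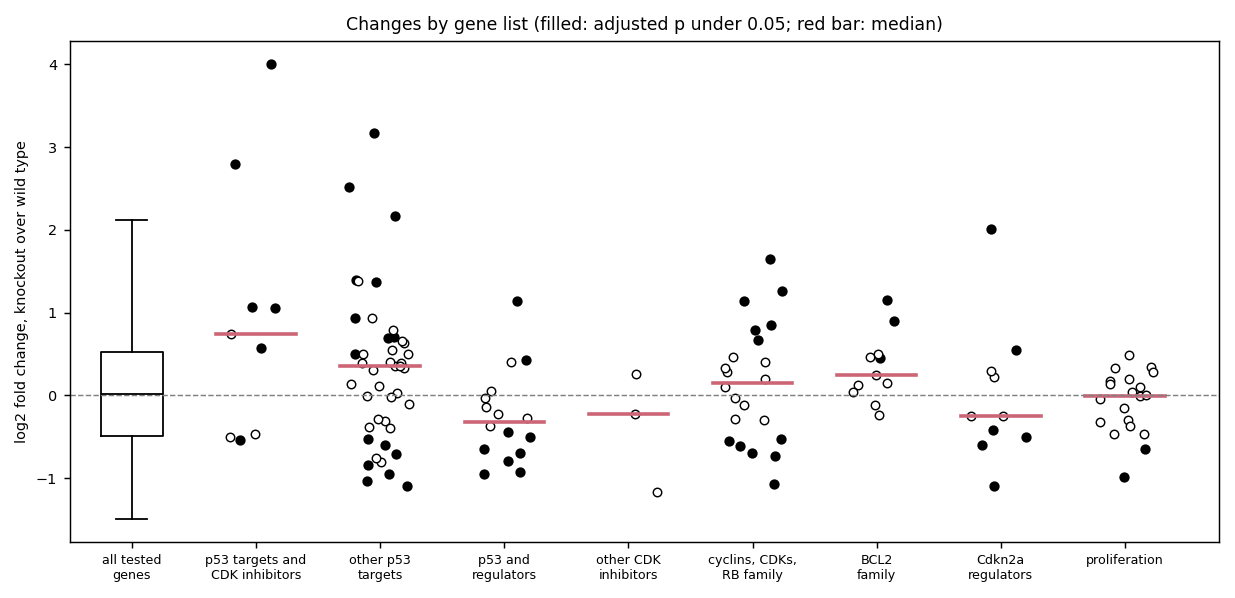
Log2 fold change of knockout over wild type (vertical axis) for the tested genes of each list, filled where the adjusted p is under 0.05, with the median of each list as a red bar and the quartiles and the 5th to 95th percentiles of all tested genes as box and whiskers. The median of the p53 targets and CDK inhibitors is 0.75 and that of further p53 targets 0.35, while p53 regulators lie at -0.32 and all tested genes at 0.02.

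Over the 6 libraries the genes whose log2 CPM followed that of Cdkn1a most closely were Cers3 (Pearson r = 0.990), Slc7a11 (0.987) and Mroh3 (0.985). For Mdm2 they were Sp6 (0.999), Tssk6 (0.998) and Nek6 (0.995). These are descriptions over 6 points that share the genotype split and the library depth, taken as the highest of all tested genes. Sp6 was at 0.058 to 0.435 CPM in the wild types and 1.79 to 3.31 CPM in the knockouts. Tssk6 was at 0.116 to 0.829 CPM over all libraries, so both rest on few counts. The level of Slc7a11 was 65.7, 25.6 and 19.7 CPM in the wild types and 23.3, 18.1 and 10.7 CPM in the knockouts, with wild type 1 the highest as for Cdkn1a. Nek6 was at 65.8, 60.6 and 51.5 CPM in the wild types and at 86.0, 82.1 and 84.9 CPM in the knockouts, with the knockouts close together as for Mdm2.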

How the data were processed

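RNA of antral mucosa was sequenced from 3 Muc6 +/+ and 3 Muc6 -/- samples with a strand-marking, polyA-selecting TruSeq kit, per the labels' protocols. The authors deposited estimated counts per gene, one column per library, a unit taken from the values, which are partly not whole. The build was mm10, per the submitters' processing notes. No source used here names the aligner, the counting program or the annotation. Counts were rounded to whole numbers. Identifiers were matched to GENCODE M21 with the version removed (34652 of 34866 received a symbol). Genes were kept with filterByExpr, scaled by TMM and tested with robust quasi-likelihood fits in edgeR 4.0.16, with genotype as the one term. The SE is the log2 fold change divided by the root of the F value. The alternatives were other scalings, filters and thresholds, DESeq2 1.42.0, limma-voom (limma 3.58.1), the replicate number as a block, a loess trend over GC content removed by an offset (13988 tested genes had a value), and libraries left out. Precision follows each gene's counts, given above for low genes. Replicates may be technical, and p-values then measure only their spread. Every pair of libraries within a genotype differed by more than sampling noise (16 to 79.6 for chi-square over its degrees of freedom), and all 6 entered as separate samples. The fit was also run on simulated counts that varied less between libraries than these data, so that run does not show how it performs here. The members and lists were chosen with earlier results of these data known. All members are named, and of each other list up to 4 called genes with the smallest adjusted p, or up to 2 where none passed, plus Trp53, all CDK inhibitors and the 3 genes most like Cdkn1a and Mdm2; the ratios and any further names were chosen after values were seen. Analyses used R 4.3.3 and Python 3.11.15.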

Additional observations from a re-analysis of the deposited data

How the results depend on the processing

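Of the 9 tested p53 targets and CDK inhibitors, none changed direction in any alternative run. The number called was 6 (5 higher, 1 lower). At a false discovery rate of 0.01 it was 3, with 3 higher and 0 lower, and at 0.1 the number lower was 3. The number lower was 0 with total counts, 2 with DESeq2 and 3 without both libraries numbered 1, and leaving out 1 library gave 6 called, 5 higher and 1 lower each time, with Cdkn1a in place of Cdkn1b without wild type 3. Over all genes, 5386 were called (2699 higher, 2687 lower). This became 2665 (1257 and 1408) at a rate of 0.01, 5730 higher and 1091 lower with total counts, and 1489 higher with the GC trend removed, and leaving out 1 library gave 3342 to 6009 called, 1600 to 3045 higher and 1721 to 2964 lower. Same-numbered deviations correlated at 0.252, 0.0908 and 0.191. Wild type 1 and knockout 1 matched each other best (0.252), while wild type 3 correlated best with knockout 2 (0.275). Whether the replicate numbers pair the samples cannot be told from these values. With the replicate block 5069 genes were called and 2 of the tested members were lower, Cdkn1a being added (-0.48, edgeR adjusted p = 0.0323). With the block and the GC trend removed 1664 genes were higher and Phlda3 was not called (2.32, 0.0611). Cdkn1b was not called there either (-0.38, 0.15). Of the other named genes, the calls of Cop1 (0.806), Bub1 (0.231), Bcl2l1 (0.627), Bmf (0.206), Suz12 (0.0585) and Cbx7 (0.399) were not made in that fit. Among other named genes, Cdkn2c turned to -0.16 with the GC trend removed and -0.17 with the block as well, and Cdkn2d to 0.19 with total counts and 0.0733 without both libraries numbered 1, none of them called; the cause was not tested. Genes with few counts, such as Cdkn2a and Eda2r in wild type, are limited by depth.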

Other observations

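Further p53 targets, named after their values were seen and not followed gene by gene through the alternatives, also divided by direction. Plk2, a polo-like kinase, rose by 2.52 (SE 0.35, edgeR adjusted p = 0.00242), with 2.83, 7.82 and 4.93 CPM in the wild types and 33.8, 31.4 and 24.2 CPM in the knockouts, and Sesn2, a stress-induced brake on mTORC1, rose by 1.37 (SE 0.33). Apaf1, the core of the apoptosome, rose by 0.69. Pmaip1, which encodes the death factor NOXA, fell by 1.04 on the log2 scale, from 62.7 to 30.6 CPM on average. Gadd45a, a growth arrest gene, fell by 1.09 on the log2 scale (SE 0.32, edgeR adjusted p = 0.0343), with wild type 1 standing above the others. It was at 43.7, 20.1 and 19.95 CPM in the wild types and at 11.8, 13.3 and 14.1 CPM in the knockouts. Rrm2b, a ribonucleotide reductase subunit for DNA repair, fell by 0.84 on the log2 scale. Btg2, a p53-induced antiproliferative gene, averaged 113 CPM in each genotype, and the groups overlapped (0.00, SE 0.16). Among the cell cycle genes, Cdk6, a target of Cdkn2b's protein, rose by 1.15 and Ccnd3 by 0.85, while Ccna2 fell by 0.73 on the log2 scale.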
